A study of Drosophila melanogaster with 32 samples.

Results

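In somatic cells of Drosophila melanogaster larval ovaries that carried RNAi against yorkie (yki), 1407 of 10672 tested genes differed between the late stage (120 hours after egg laying, labelled white pupae) and the mid stage (96 hours, labelled III instar larvae). Of 16 basement membrane genes 11 rose late, and of 24 tested ecdysone response genes 7 rose, among them Hr3, Hr4 and Eip93F, and 3 fell. The imaginal disc growth factor genes Idgf4 and Idgf6, the Wnt ligand genes Wnt6, wg and Wnt2, the transcription factor gene chinmo and 5 of 8 immediate early and JNK pathway genes fell. Another Wnt ligand gene, Wnt4, rose. Over all tested genes, 6.65% were called higher late and 6.53% lower. The comparison rested on 6 libraries, 3 biological replicates per stage, out of the 30 libraries of the series that had a column in the count table. In all 6, bab:GAL4, a GAL4 insertion at bab1, drove UAS yki RNAi together with UAS GFP in somatic ovary cells, with 1 RNAi line per gene, and the GFP-positive cells were sorted by flow cytometry straight into lysis reagent. Both stages therefore carried the same RNAi line and driver, and the pair compares stages under that RNAi. Whether the change with stage depends on the RNAi cannot be told within this pair. An equal degree of knockdown was not shown: every late library had more yki than every mid library, though the difference was not called. Somatic libraries with RNAi against hippo (hpo) under the same driver, late and mid, served for comparison, and 18 somatic libraries in all (yki RNAi and hpo RNAi at 72, 96 and 120 hours, 3 each) entered the statistical fit.

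The larval ovary builds terminal filaments, stacks of flattened somatic cells that later organise the germline stem cell niches, during the third larval instar. Yki is the transcriptional coactivator that the Hippo kinase cascade holds in check, and it drives growth and cell survival genes in fly epithelia. The steroid hormone ecdysone, acting through the nuclear receptor EcR and its partner Usp, peaks at the end of larval life and switches on a cascade of transcription factors as the animal pupariates. The late and mid stages of this comparison lie on either side of that transition.

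Library totals were 34962047, 17769590 and 29376938 counts late and 42516080, 61547876 and 26111373 counts mid. Mitochondrial genes took 5.29% to 6.31% of the counts late and 7.66% to 12.2% mid. Mid replicate 3 stood apart from its group. It had 8447 genes with a count, against 10211 and 10938 in mid replicates 1 and 2, and its Spearman correlation with them was 0.952 and 0.954, against 0.975 between those 2 and 0.983 to 0.988 among the late libraries. Its counts also leaned the other way with transcript length, as described below. Of the genes named here, 10 lost their call in the fit without this library (EcR, ftz-f1, Ser, shg, Nrg, Timp, tyn, CycB3, skl and Hsp27), and genes called only without it are given with that value where they are described, an alternative chosen after seeing the data. Markers of the labelled cell type were present in both stages: levels of 10 somatic ovary markers, in CPM (the usual counts-per-million scale, relative to the library total), summed to 4071 to 4384 late and 2241 to 2724 mid. Of 11 germ line markers none was called, vas stood at 1.82 ± 0.43 CPM late and 1.99 ± 0.61 CPM mid (SD, n = 3 each), and most of the list's sum of 469 to 622 CPM late and 363 to 506 CPM mid came from spn-E. Summed fat body markers stayed at or below 4.56 CPM in all 6 libraries.

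The RNAi target itself was measured first. In the late libraries yki (FBgn0034970) had 14.8, 12.3 and 14.9 CPM, and in the mid libraries 7.86, 6.34 and 12.03 CPM. The late values all lay above the mid values, but the difference was not called by edgeR's quasi-likelihood test with Benjamini-Hochberg adjustment over all genes tested (log2 fold change 0.68, SE 0.31, adjusted p = 0.176), the test used for every call here at an adjusted p under 0.05. Late lay wholly above mid in 20.3% of all tested genes. Without mid replicate 3, yki was called higher late (log2 0.997, SE 0.32, adjusted p = 0.0468). Under hpo RNAi, yki stood at 26.0, 27.4 and 29.3 CPM late and 25.0, 19.4 and 19.9 CPM mid, so the 6 yki RNAi libraries were the lower ones at both stages. The kinase gene hpo, not targeted here, was also not called between the stages (125 ± 6.08 CPM late and 93.5 ± 15.2 CPM mid, SD, n = 3 each, log2 fold change 0.41, adjusted p = 0.511).

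Of the 10672 genes tested, 710 were called higher late (6.65%) and 697 lower late (6.53%), 13.2% in all, and 2706 had an unadjusted p under 0.05. Changes of at least log2 1 made up 304 of the higher and 382 of the lower genes. The late and mid libraries did not overlap for 1381 of the 1407 called genes (98.2%), against 35.8% of all genes tested (20.3% late above mid, 15.5% late below). In fits without 1 of the 6 libraries, 718 genes were called each time, 360 higher and 358 lower. The number of calls ranged from 893 without late replicate 1 to 1635 without mid replicate 3, and was 898 without late replicate 3.

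**Figure D1:**
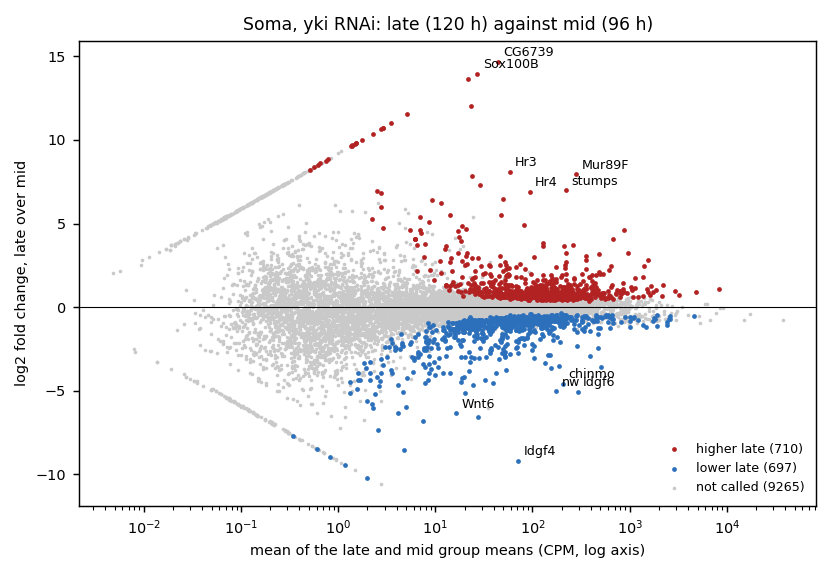
Log2 fold change of late over mid against the mean of the 2 group means in CPM (log axis), 1 point per tested gene. Red points mark the 710 genes called higher late and blue points the 697 called lower late; genes with no count in all 3 libraries of a stage lie on the slanted outer lines, where the fitted fold change depends on the prior count.

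The direction of change leaned with gene length. When the tested genes were ordered by exon length (the summed length of a gene's exons) and split into 10 groups of equal size, the median log2 fold change was -0.27 in the group of shortest genes (median 535 bases) and 0.33 in the longest (median 7495.5 bases). Of the 1064 shortest genes 7 were called higher and 35 lower, and of the 1064 longest 228 were called higher and 58 lower. Genes called higher late had a median exon length of 4167 bases, genes called lower 2070 bases, and all tested genes 1949 bases. The trend of each library's counts over length, taken as the longest minus the shortest genes on the log2 scale, was 0.15, 0.09 and 0.32 in late replicates 1 to 3 and -0.61, -0.67 and 0.87 in mid replicates 1 to 3. Thus the late libraries were alike, while mid replicate 3 lay on the opposite side of its own group.

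Removing each library's trend as an offset in the same fit left the sign of every one of the 1407 called genes as it was. It called 1333 genes (12.5%), 588 higher (5.51%) and 745 lower (6.98%). Both fits shared 1181 calls, 83.9% of the calls before removal, 536 higher and 645 lower. Calls lost were 174 higher and 52 lower genes, and calls gained were 52 higher and 100 lower genes. Among all tested genes, called or not, 920 changed sign. After removal the groups had medians between -0.22 in the shortest and 0.06 in the longest, so the shortest genes kept a lower median. The changes described next are given as counted, and a call that removal of the length trend ends is named.

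**Figure D2:**
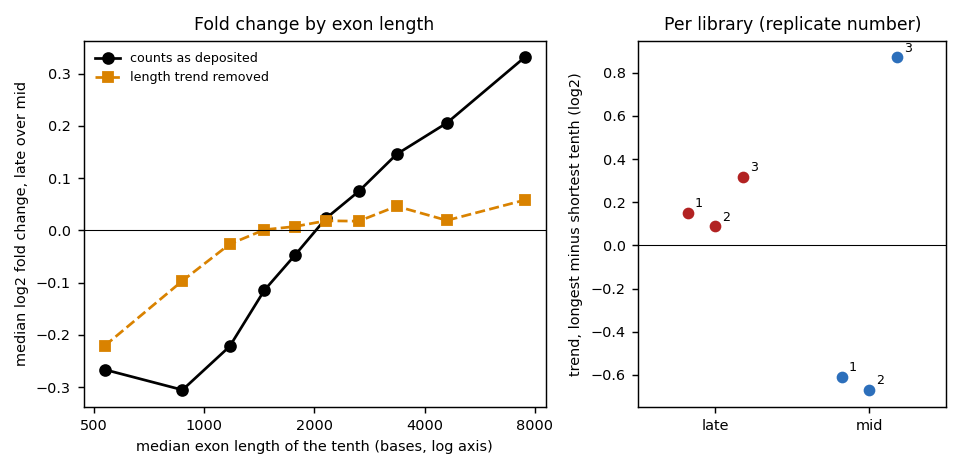
Left, median log2 fold change of late over mid in 10 groups of genes by exon length (bases, log axis), from the counts as deposited (black) and after removing each library's length trend (orange). Right, the length trend of each of the 6 libraries (longest minus shortest genes, log2), with the replicate number beside each point; the late libraries lie between 0.09 and 0.32, mid replicates 1 and 2 near -0.6 and mid replicate 3 at 0.87.

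Ecdysone response genes held the nuclear receptors with the largest rises. Of 26 listed genes 24 were tested, and 7 were called higher and 3 lower (6.65% and 6.53% over all tested genes). The list median log2 fold change was 1.39 against 0.00 over all tested genes. Hr3 (FBgn0000448), an early-late nuclear receptor that represses the early genes and prepares the prepupal response, had 109, 114 and 124 CPM late and 0.400, 0.699 and 0 CPM mid (log2 fold change 8.09, SE 1.08, adjusted p = 4.05e-05). Hr4 (FBgn0264562), a nuclear receptor of the same wave, had 208, 165 and 182 CPM late and 2.38, 1.79 and 0.230 CPM mid (log2 6.91, SE 0.78, adjusted p = 5.54e-06). Both were near 0 in every mid library and clearly expressed in every late library.

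Eip93F (FBgn0264490), the transcription factor E93 that directs the pupal to adult transition, had 79.9, 103 and 93.2 CPM late and 1.81, 0.309 and 4.10 CPM mid (log2 5.51, SE 1.11, adjusted p = 0.00228). The early gene Eip75B (FBgn0000568), a haem-binding nuclear receptor, had 298, 383 and 278 CPM late and 76.5, 83.7 and 95.6 CPM mid (log2 1.90, SE 0.18, adjusted p = 9.6e-07). The broad gene (br, FBgn0283451), which encodes the zinc finger proteins that specify pupal fate, had 2556, 2266 and 2233 CPM late and 756, 662 and 1465 CPM mid (log2 1.28, SE 0.28, adjusted p = 0.00392). For br, mid replicate 3 lay well above the other mid libraries and below all late ones. E23, an ABC transporter gene that dampens the ecdysone response, and Eip78C, another nuclear receptor gene, rose by log2 fold changes of 1.63 and 1.65.

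The receptor gene moved the other way. EcR (FBgn0000546) had 63.0, 60.3 and 63.1 CPM late and 88.6, 81.5 and 168 CPM mid (log2 -0.87, SE 0.28, adjusted p = 0.0478), a call that 4 of 6 fits without 1 library did not make. Lower late as well were vri, a bZIP repressor gene (log2 -1.20, adjusted p = 0.000973), and ftz-f1, the competence factor of the prepupal stage (log2 -0.68, adjusted p = 0.0441), which was called in no fit that omits a library. Expression of usp, the partner receptor gene, was 57.2 ± 4.29 CPM late and 50.1 ± 21.3 CPM mid (SD, n = 3 each, adjusted p = 0.729). Eip74EF, another early gene, stood at 157, 145 and 152 CPM late and 63.1, 66.4 and 161 CPM mid and was not called (adjusted p = 0.245). The late group of Eip74EF was tight, the mid group was split by its replicate 3, and without that library Eip74EF was called higher (log2 1.23, adjusted p = 0.00765). The let-7 complex transcript had no count in any mid library and 1.74, 2.19 and 0.851 CPM late (adjusted p = 0.051). With the length trend removed the list had 7 higher and 4 lower members, and without 1 library 7 to 8 higher and 1 to 3 lower.

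**Figure D3:**
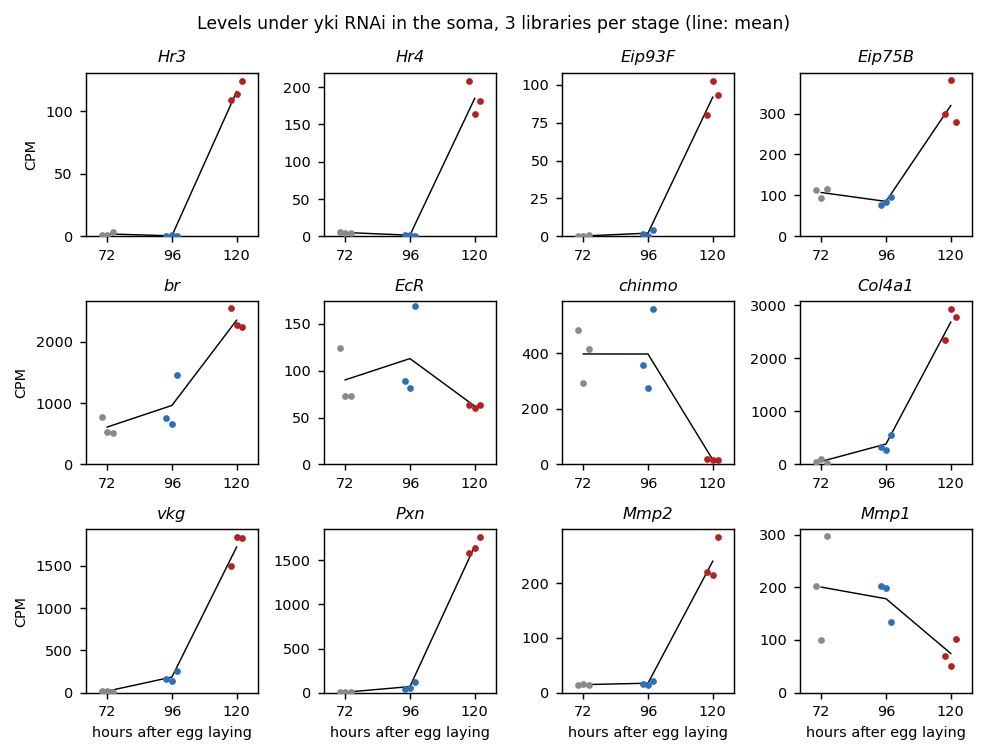
Expression of 12 genes under yki RNAi in the soma at 72, 96 and 120 hours after egg laying (CPM, 3 libraries per stage as points, the mean as a line, each panel on its own scale from 0). Hr3, Hr4, Eip93F, Mmp2, Pxn and the collagen IV genes sit low at 72 and 96 hours and high at 120 hours; chinmo shows the reverse, with 397 CPM on average at 96 hours and 16.7 CPM at 120 hours.

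The genes with the largest rises, 12 by a rule that also asked for at least 10 CPM and libraries without overlap, were at or near 0 in the mid libraries. Sox100B (FBgn0024288), a SoxE transcription factor gene known from the somatic testis, had 41.4, 54.9 and 65.9 CPM late and no count in any mid library, which makes it at least 2304-fold higher late against a floor of 3 counts over the mid group (adjusted p = 1e-07). CG6739 (FBgn0031926) had 82.0, 67.9 and 116 CPM late and no mid count, at least 3961-fold higher (adjusted p = 0.000202). The membrane protein gene tinc had 12.7, 8.10 and 10.2 CPM late and no mid count, at least 469-fold higher (adjusted p = 0.00376). For CG34377 the single count in the mid group set a ratio of 5481 (95% interval 983 to 216540, counting error only). CG46321, at 40.4, 46.4 and 43.9 CPM late and no mid count, lies inside Hr3 on the same strand in the BDGP6 annotation, so its reads may be those of Hr3.

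The other 5 of the 12, beside Hr3 and Hr4, had counts in at least 1 mid library. Mur89F, a mucin-related gene, had 608, 696 and 385 CPM late and 3.13, 1.95 and 1.65 CPM mid (log2 7.96, SE 1.27, adjusted p = 0.000249). The adaptor gene stumps, which links FGF receptors to the MAP kinase cascade, had 353, 383 and 587 CPM late and 1.65, 3.02 and 5.86 CPM mid (log2 6.99, SE 0.81, adjusted p = 7.53e-06). The chitin-binding protein gene obst-A had 113, 90.5 and 89.7 CPM late and 0, 0.877 and 2.72 CPM mid (log2 6.45, adjusted p = 0.000714). The ABC transporter gene CG4822 (log2 7.81) and yellow-c (log2 7.28) completed the 12. In each of them the lowest late library lay far above the highest mid library, where the rule already required no overlap.

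Imaginal disc growth factor genes, which encode secreted chitinase-like proteins, were among the 12 largest falls. Idgf4 (FBgn0026415) had 0.601, 0 and 0 CPM late and 177, 211 and 41.2 CPM mid (log2 -9.17, SE 0.90, adjusted p = 1.03e-06). Idgf6 (FBgn0013763) had 18.1, 15.3 and 17.5 CPM late and 604, 634 and 455 CPM mid (log2 -5.06, SE 0.21, adjusted p = 2.47e-11). The neighbouring paralogs Idgf1 and Idgf3 fell by log2 fold changes of -2.75 and -2.38, and the authors' division of reads between such copies is not known. With Idgf2 not called (31.7 CPM late and 61.1 CPM mid on average, adjusted p = 0.101, and 0.0343 without mid replicate 3), 4 of the 5 tested members were lower, with a median log2 fold change of -2.75. This family was listed after its values had been seen, and 6.53% of all tested genes were called lower.

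The transcription factor gene chinmo (FBgn0086758), which maintains juvenile and male states in other fly tissues, had 19.5, 15.4 and 15.2 CPM late and 357, 275 and 559 CPM mid (log2 -4.58, SE 0.30, adjusted p = 1.27e-08). Wnt6 (FBgn0031902) had 0.601, 0 and 0.443 CPM late and 38.9, 37.7 and 20.2 CPM mid (log2 -6.34, SE 0.61, adjusted p = 9.6e-07). Narrow (nw), a C-type lectin gene that shapes the wing, had 10.0, 10.9 and 10.5 CPM late and 352, 218 and 453 CPM mid (log2 -5.03, SE 0.59, adjusted p = 9.45e-06). At 72 hours nw had only 26.5, 21.2 and 3.18 CPM, so its high level was seen in the mid group among the 3 yki RNAi stages, while chinmo and Wnt6 were already high at 72 hours. The other large falls were in the aldehyde oxidase gene AOX1 (log2 -6.56), the glycosyltransferase gene Ugt302C1 (-5.13), ana, which encodes a secreted glycoprotein that holds neuroblasts quiescent (-4.66), the phosphodiesterase gene Pde6 (-4.56), the serine protease gene CG4914 (-4.48), CG9451 (-6.82) and CG15611 (-4.56). All 24 of these largest changes kept their call under each alternative run on them and without any 1 of the 6 libraries. They were picked from these same libraries for large changes without overlap, so this gives no separate support. Among all 1407 called genes, 718 were called in every fit without 1 library.

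**Figure D4:**
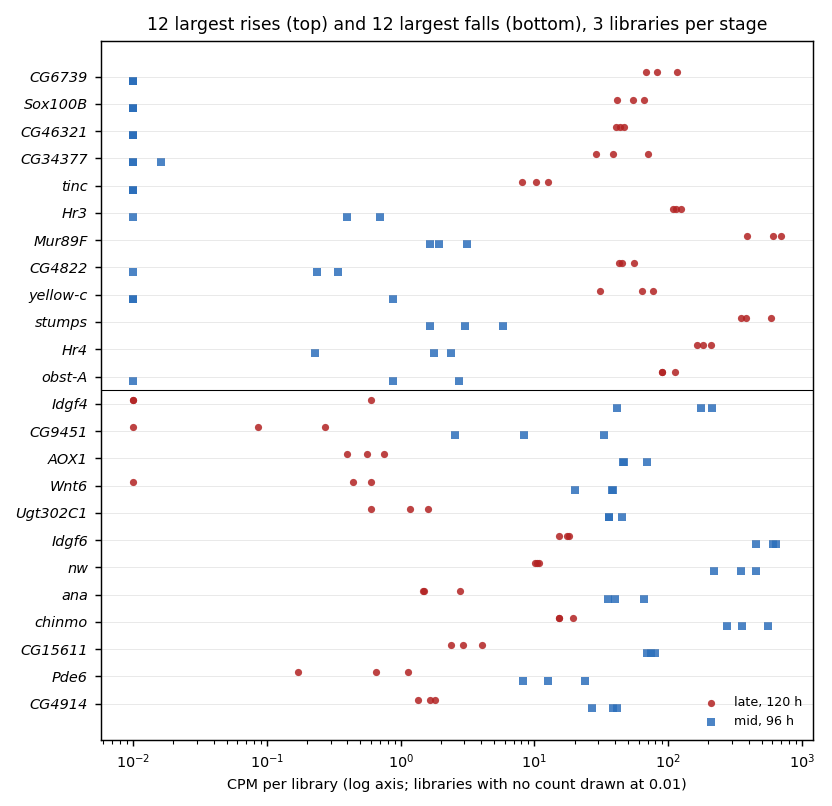
CPM in each of the 3 late (red circles) and 3 mid (blue squares) libraries for the 12 largest rises (upper rows) and 12 largest falls (lower rows), on a log axis with libraries of no count drawn at 0.01. In every row the 2 stages stand apart, since the rule that picked these genes required libraries without overlap. For Hr3 the late libraries have 109 to 124 CPM and the mid libraries 0 to 0.699 CPM.

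Basement membrane genes encode the sheet of collagen IV, laminin and proteoglycan that underlies epithelia and ensheathes the ovary. Of 16, 11 were called higher late and 1 lower (6.65% and 6.53% over all tested genes), with a median log2 fold change of 1.02. The collagen IV chain gene Col4a1 (FBgn0000299) had 2338, 2925 and 2779.8 CPM late and 327, 269.6 and 556 CPM mid (log2 2.79, SE 0.36, adjusted p = 2.57e-05), and its partner vkg (FBgn0016075) had 1498, 1838 and 1834 CPM late and 157, 136 and 257 CPM mid (log2 3.23, SE 0.48, adjusted p = 0.000134). At 72 hours both were lower still, at 55.8 ± 32.5 and 16.8 ± 5.18 CPM (SD, n = 3 each). The laminin chain genes LanA, LanB1 and LanB2 rose by log2 fold changes of 1.08, 0.88 and 1.3005, and the perlecan gene trol by 0.70 (adjusted p = 0.0291), a call that ended when the length trend was removed (adjusted p = 0.178).

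Matrix-modifying enzymes changed in both directions. Pxn (FBgn0011828), the peroxidase that crosslinks collagen IV, had 1580.00, 1643 and 1763 CPM late and 34.9, 49.9 and 118 CPM mid (log2 4.61, SE 0.60, adjusted p = 2.82e-05). The matrix metalloproteinase gene Mmp2 (FBgn0033438) had 222, 215 and 285 CPM late and 16.1, 13.7 and 21.5 CPM mid (log2 3.81, SE 0.31, adjusted p = 1.26e-07). The other metalloproteinase gene, Mmp1 (FBgn0035049), had 69.1, 50.9 and 103 CPM late and 203, 198 and 134 CPM mid (log2 -1.27, SE 0.37, adjusted p = 0.0262). So the 2 proteinases moved in opposite directions without overlap of their libraries, although 4 of the 6 fits that omit a library did not call Mmp1. Late lay wholly above mid in 20.3% of all tested genes and wholly below in 15.5%. The papilin gene Ppn (log2 3.18), the collagen lysyl hydroxylase gene Plod (1.59) and the proteinase inhibitor gene Timp (0.83) were also higher late, with Timp not called in 5 of the 6 fits that omit a library. Ndg, which encodes the linker nidogen, and SPARC, a collagen chaperone gene, were not called, at 76.6 ± 33.4 CPM late and 71.0 ± 4.69 CPM mid, and at 599.6 ± 64.5 CPM late and 816 ± 328 CPM mid (SD, n = 3 each), but SPARC was called lower without mid replicate 3 (log2 -0.73, adjusted p = 0.0255). Without 1 library 9 to 10 of the 16 were higher and 0 to 2 lower.

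Hemocytes also make basement membrane proteins, and Pxn stands on the hemocyte marker list as well. The summed CPM of the 8 hemocyte markers was 1730 to 1914 late and 97.7 to 172 mid, of which Pxn alone gave 1580.00 to 1763 CPM late. The transcription factor gene srp was higher too (90.2 ± 3.70 CPM late and 23.9 ± 3.54 CPM mid, SD, n = 3 each, log2 1.91, adjusted p = 1.03e-06). The defining markers NimC1 and He had no count in any of the 6 libraries, eater had at most 0.143 CPM late and 0.179 CPM mid, and Hml 0.340 to 1.89 CPM late and 0 to 0.309 CPM mid. Of 9 muscle markers, Act57B and sls were called higher and Mlc2 lower, their sum was 201 to 241 CPM late and 71.2 to 109 CPM mid, and the myosin gene Mhc stood at 0.104 CPM late and 0.455 CPM mid on average. The part of these cell types in the result was not tested beyond these levels. In sorted bulk samples of this kind, fewer cells of a type and less RNA per cell cannot be told apart.

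As counted, Hippo pathway components were called in 1 direction. Of 22, 6 were higher late and none lower, with a median log2 fold change of 0.45. Over all genes tested, 6.65% were called higher and 6.53% lower, and the share called higher was larger among long genes. The protocadherin gene ds (FBgn0284247) had 648, 467 and 704 CPM late and 144, 169.97 and 197 CPM mid (log2 1.82, SE 0.25, adjusted p = 4.28e-05). Its downstream myosin gene dachs had 25.0, 25.6 and 22.4 CPM late and 2.705, 3.88 and 4.67 CPM mid (log2 2.69, SE 0.72, adjusted p = 0.0160). The upstream regulator gene ex (FBgn0004583) had 185, 214 and 246 CPM late and 81.4, 79.2 and 129 CPM mid (log2 1.15, SE 0.21, adjusted p = 0.00109). For these 3 genes each late library exceeded each mid library, as it did for 20.3% of all tested genes. The polarity gene crb, kibra and Rassf were called with log2 fold changes of 0.88, 0.67 and 0.52, and kibra lost its call with the length trend removed (adjusted p = 0.0885). The kinase gene wts stood at 136 ± 16.6 CPM late and 91.1 ± 40.6 CPM mid and was not called (SD, n = 3 each, adjusted p = 0.13), but was called higher without mid replicate 3 (log2 1.01, adjusted p = 0.0014). The count of higher members was 2 without mid replicate 2, 3 without mid replicate 1 or late replicate 3 and 10 without mid replicate 3, and with the length trend removed the list had 5 higher and 1 lower.

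Published Yki targets, 5 of which (ex, kibra, crb, fj and Mer) are also on the Hippo list, went both ways. Among 16 tested members 5 were higher and 2 lower (6.65% and 6.53% over all tested genes), with a median log2 fold change of 0.16. The caspase inhibitor gene Diap1 (FBgn0260635) had 216, 229 and 259 CPM late and 97.9, 86.9 and 93.5 CPM mid (log2 1.33, SE 0.17, adjusted p = 3.26e-05). The cell cycle factor gene E2f1 was called with a log2 fold change of 0.42, and that call ended with the length trend removed (adjusted p = 0.563). The ligand genes Ser (log2 -1.29, adjusted p = 0.0308) and wg (-4.74, adjusted p = 0.000133) were lower late. The growth regulator gene Myc stood at 468, 402 and 505 CPM late and 535, 506 and 982 CPM mid, not called as counted (adjusted p = 0.13) but called lower with the length trend removed (log2 -0.79, adjusted p = 0.00262). With the trend removed the list had 3 higher and 4 lower members, and without 1 library 2 to 6 higher and 1 to 2 lower, with 2 higher without late replicate 3, mid replicate 1 or mid replicate 2.

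Among 23 tested genes of the terminal filament and its niche signals, 5 were higher late and 2 lower, with a median log2 fold change of 0.38. With the length trend removed 5 were higher and 3 lower, with a median of 0.17. The shares over all tested genes, as counted, were 6.65% higher and 6.53% lower. Tkv (FBgn0003716), the type I receptor for the BMP ligand Dpp, had 597, 616 and 583 CPM late and 151, 166 and 192 CPM mid (log2 1.81, SE 0.19, adjusted p = 1.99e-06). Lmx1a, a LIM homeobox gene needed for terminal filament assembly, had 579, 517 and 851 CPM late and 164, 148 and 204 CPM mid (log2 1.91, SE 0.49, adjusted p = 0.0133), a call not made in 3 of the 6 fits that omit a library. The Hedgehog transducer gene smo and the somatic transcription factor gene zfh1 rose by 0.965 and 0.9996 on the log2 scale. The Wnt genes separated: Wnt4 (FBgn0010453) had 1458, 1659.9 and 1175 CPM late and 720.2, 576 and 559.8 CPM mid (log2 1.21, SE 0.19, adjusted p = 0.000277), whereas Wnt2 (FBgn0004360) had 28.3, 25.9 and 28.9 CPM late and 117, 118 and 113 CPM mid (log2 -2.07, SE 0.19, adjusted p = 3.71e-07) and wg had 0.0858, 0 and 0.443 CPM late and 4.52, 8.98 and 1.80 CPM mid. Without 1 library 4 to 7 members were higher, 7 of them without mid replicate 3, and 2 lower. Terminal filament markers were not called: en stood at 10.8, 10.8 and 8.54 CPM late and 1.58, 2.13 and 9.04 CPM mid, hh at 65.3 ± 2.79 CPM late and 60.0 ± 16.2 CPM mid, and bab2 at 744 ± 84.7 CPM late and 588 ± 217 CPM mid (SD, n = 3 each). Without mid replicate 3, bab2 was called higher (log2 0.70, adjusted p = 0.0172) and en was not (log2 2.44, adjusted p = 0.411). The somatic marker gene ct, a homeobox gene, was higher late, at 182 ± 53.3 CPM against 23.1 ± 6.89 CPM mid (SD, n = 3 each, log2 2.97, adjusted p = 0.00421).

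Immediate early and JNK pathway genes fell where they were called, with a median log2 fold change of -0.80. Among the 8, 5 were lower and none higher (6.53% and 6.65% over all tested genes). Ets21C (FBgn0005660), an ETS transcription factor gene induced by JNK signalling, had 4.29, 5.57 and 12.4 CPM late and 82.1, 59.4 and 33.5 CPM mid (log2 -2.97, SE 0.39, adjusted p = 2.91e-05). The Fos gene kay (FBgn0001297) had 134, 129 and 181 CPM late and 334, 262 and 267 CPM mid (log2 -0.96, SE 0.16, adjusted p = 0.000378). The JNK phosphatase gene puc (log2 -0.64), the TNF ligand gene egr (-1.21) and Mmp1 made up the 5. The libraries of Ets21C and kay did not overlap, while those of egr did. Late lay wholly below mid in 15.5% of all tested genes. Without 1 library 2 to 5 were called, 2 of them without late replicate 1 and 2 without mid replicate 2. The Fos partner gene Jra (log2 -0.44, adjusted p = 0.162) and the kinase gene bsk (log2 0.25, adjusted p = 0.312) were not called.

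Adhesion and actomyosin genes were called in both directions, with 4 of 22 higher, 5 lower and a median log2 fold change of -0.12. With the length trend removed 3 were higher and 7 lower, with a median of -0.26. The shares over all tested genes, as counted, were 6.65% higher and 6.53% lower. Filamin genes were lower late: cher (FBgn0014141) had 494, 392 and 499 CPM late and 867, 889 and 926 CPM mid (log2 -0.96, SE 0.19, adjusted p = 0.00165), and jbug fell by 1.51 on the log2 scale. The E-cadherin gene shg (log2 -0.45, adjusted p = 0.0279) and the vinculin gene Vinc (-0.84, adjusted p = 0.0017) were lower, but the catenin genes arm (0.59) and alpha-Cat (0.73), the integrin gene mew (0.77) and the talin gene rhea (0.83) were higher. Omitting a library ended the shg call in 5 of 6 fits and that of Nrg (log2 -0.47) in 6 of 6. The list had 6 higher and 3 lower members without mid replicate 3, and 3 to 4 of each without 1 of the others. The arm call ended with the length trend removed (adjusted p = 0.0575). Of 10 tested ZP-domain apical matrix genes 3 were higher late, neo, nyo and tyn, of which tyn lost its call with the trend removed (adjusted p = 0.19).

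**Figure D5:**
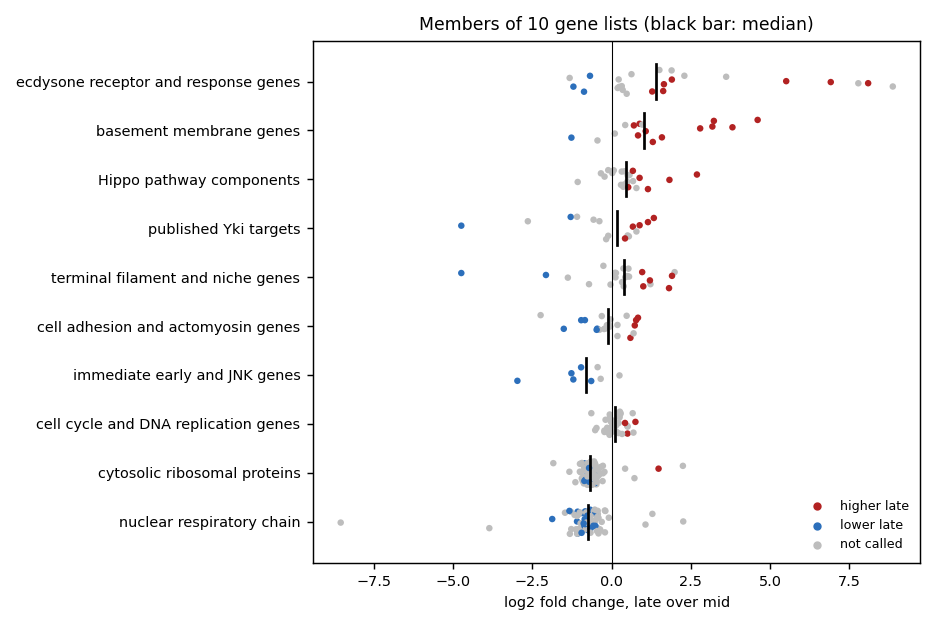
Log2 fold change of late over mid for each tested member of 10 gene lists (red, called higher late; blue, called lower late; grey, not called), with the list median as a black bar; vertical scatter within a row has no meaning. Basement membrane genes lie mostly to the right with 11 of 16 called higher, and immediate early and JNK genes to the left with 5 of 8 called lower. Over all tested genes, 6.65% were called higher and 6.53% lower.

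Genes of translation and respiration had list medians below 0, and how many were called hung on mid replicate 3. The 69 tested nuclear genes of the respiratory chain had a median log2 fold change of -0.75. Of them, 22 were lower late and none higher (6.53% and 6.65% over all tested genes). Without mid replicate 3 there were 38, and without 1 of the other libraries 6 to 13. The cytochrome oxidase subunit gene COX8 (FBgn0263911) had 14.3, 13.8 and 13.2 CPM late and 39.0, 58.1 and 53.2 CPM mid (log2 -1.87, SE 0.38, adjusted p = 0.00216). It was 1 of 4 members, with COX4, ND-SGDH and UQCR-14, that were called in all 6 fits without 1 library. Of 87 cytosolic ribosomal protein genes, 10 were lower and 1 higher, with a median log2 fold change of -0.69. The lower count was 35 without mid replicate 3 and 1 to 4 without 1 of the others. RpS2 shows the split: it had 1659, 1717 and 1766 CPM late and 3802, 3764 and 1759.8 CPM mid, so that mid replicate 3 lay among the late libraries. The 1 riser was RpS5b, the paralog of RpS5a known from the ovary, with 218, 226 and 209.9 CPM late and 87.4, 94.1 and 52.2 CPM mid (log2 1.48, SE 0.33, adjusted p = 0.00489). With the length trend removed the medians were -0.58 and -0.52, with 23 and 15 lower members. None of 36 tested proteasome genes was called (median log2 -0.14).

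Other lists gave few calls, to be read against 6.65% of all tested genes called higher and 6.53% called lower. Of 34 cell cycle and DNA replication genes, 3 were higher (CycB, CycB3 and E2f1, of which CycB alone with the length trend removed) and none lower, with 1 to 3 higher without 1 library, and of 19 cell death genes 4 were higher, the caspase gene Dronc (log2 0.81), its adaptor gene Dark (0.81), Diap1 and skl. Only 1 of them was called without mid replicate 1 or 2, and 2 without any 1 late library. The pro-apoptotic gene skl had 1.57, 2.98 and 3.85 CPM late and no mid count, at least 117-fold higher, but no fit that omits a library called it. In the insulin pathway Thor, the translation repressor 4E-BP, had 10.7, 7.26 and 10.8 CPM late and 93.5, 109.6 and 41.3 CPM mid (log2 -3.08, SE 0.47, adjusted p = 0.00015), and the transcription factor gene foxo that activates Thor fell by 1.01 on the log2 scale (adjusted p = 0.000563). The other 11 tested genes of that list were not called. Glycolysis (Pfk higher, Hex-A lower), heat shock (Hsp27 higher, stv lower) and EGFR genes (Egfr higher, its inhibitor aos lower) had 1 call in each direction, and the Egfr call ended with the length trend removed (adjusted p = 0.182). Omitting a library ended the call of Hsp27 in 5 of 6 fits, of stv in 4, of Egfr in 3 and of aos in 1. Yp3 of 4 yolk protein genes, Jheh1 and Jheh2 of 5 tested juvenile hormone genes, and 2 of 24 tested cuticle protein genes were lower. The Jheh1 call ended with the length trend removed (adjusted p = 0.0651). Omitting a library ended the call of Yp3 in 5 of 6 fits, of Jheh1 in 4 and of Jheh2 in 3, and neither Jheh gene was called without mid replicate 1 or 2. The strand counted by the authors is not known, so reads cannot be told apart from those of a gene overlapping on the other strand for usp, br, Hr4, the let-7 complex, hpo, ex, ds, Diap1, Myc, E2f1, smo, tkv, zfh1, arm, cher, rhea, Ndg, Pxn, Mmp1, Mmp2, Timp, tyn, Dark, Hsp27, Jra, Ets21C, Jheh1, Jheh2, sls, He, ND-SGDH, UQCR-14, CG34377, Mur89F, CG4822, yellow-c and ana.

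Somatic cells with hpo RNAi passed through the same stages, and their late and mid libraries are other libraries than those under yki RNAi. There, 1687 genes were called between late and mid (15.8%), 1006 higher (9.43%) and 681 lower (6.38%), and with the length trend removed 1413 (13.2%), 699 higher (6.55%) and 714 lower (6.69%), so that higher calls made up 59.6% of calls as counted and 49.5% with the trend removed. Genes called in the same direction under both RNAi numbered 950, which is 67.5% of the yki RNAi calls and 56.3% of the hpo RNAi calls, and 6 were called in opposite directions. Of the 1407 yki RNAi calls 96.2% had the same fitted sign under hpo RNAi, against 72.5% of all genes tested. The log2 fold changes of Hr3, Hr4 and Eip93F were 8.09, 6.91 and 5.51 under yki RNAi and 6.37, 4.49 and 6.0003 under hpo RNAi, and those of Col4a1, vkg and Pxn 2.79, 3.23 and 4.61 under yki RNAi and 4.06, 4.17 and 3.29 under hpo RNAi. None of these 6 was called for a difference between the RNAi conditions (adjusted p of the interaction 0.446 or more).

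The test of the difference itself, the change with stage under yki RNAi minus that under hpo RNAi, called 43 genes (0.403%), 13 with a positive value (0.122%) and 30 with a negative value (0.281%), and 823 had an unadjusted p under 0.05. Of the 43, 38 were also called with the length trend removed, and that fit called 60 in all (0.562%), 21 positive (0.197%) and 39 negative (0.365%). The 4 with the smallest p at 10 CPM or more were nord, Gasp, LamC and Aldh, each with an adjusted p of 0.00207. LamC (FBgn0010397), the A-type lamin gene, had 32.0, 30.2 and 47.9 CPM late and 309, 250.1 and 239 CPM mid under yki RNAi, and 102, 113 and 145 CPM late and 268, 143 and 189 CPM mid under hpo RNAi (log2 fold changes -2.86 and -0.69). The mid libraries ran from 239 to 309 CPM under yki RNAi and from 143 to 268 CPM under hpo RNAi, ranges that overlapped but lay lower under hpo RNAi. The late yki RNAi libraries lay below all others. Gasp (FBgn0026077), a chitin-binding protein gene of tracheal cells, had 1.80, 2.48 and 0.851 CPM late and 31.2, 21.3 and 26.4 CPM mid under yki RNAi, and 1.56, 1.77 and 1.36 CPM late and 1.76, 0.917 and 1.58 CPM mid under hpo RNAi, so that only the mid yki RNAi libraries of these 4 groups were high.

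Aldh (FBgn0012036), an aldehyde dehydrogenase gene, fell under both conditions but further under hpo RNAi. It had 81.1, 95.3 and 59.0 CPM late and 918, 1147 and 774 CPM mid under yki RNAi, and 14.2, 9.31 and 15.5 CPM late and 850, 563 and 785 CPM mid under hpo RNAi (log2 -3.60 and -5.78). The secreted factor gene nord (FBgn0050418), which tunes BMP and Hedgehog signals in the wing, changed sign: it had 69.2, 60.4 and 72.1 CPM late and 124, 129 and 148 CPM mid under yki RNAi (log2 -0.997, adjusted p = 9.09e-05), and 95.4, 109 and 110 CPM late and 88.1, 69.3 and 62.3 CPM mid under hpo RNAi (log2 0.55, adjusted p = 0.0116). Of list members, Eip78C was called for the interaction (log2 fold changes 1.65 under yki RNAi and 3.31 under hpo RNAi, adjusted p = 0.0372, which became 0.136 with the length trend removed), as were the cytokine gene upd3, a Yki target (-2.64 and 5.61, adjusted p = 0.0305), and the adhesion gene Fas3 (-0.38 and 1.40, adjusted p = 0.0139). As counted, the change under yki RNAi alone was called neither for upd3 (adjusted p = 0.112) nor for Fas3 (adjusted p = 0.321). Fas3 is also on the list of 10 somatic ovary markers, of which 1 was called lower with the length trend removed. No immediate early or JNK gene was called late against mid under hpo RNAi, yet the interaction was called for none of the 8, so a difference between the RNAi conditions was not shown for that group.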

How the data were processed

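RNA of sorted ovary cells was sequenced after poly-A selection, and a table of expected counts per gene was deposited by the authors. Per the submitters' processing notes, bcl2fastq 2.2, STAR 2.7.6a, RSEM 1.3.3 and DESeq2 1.26.0 were used; genome build, annotation and counted strand are not given in the sources used here. The 18 columns of samples outside the labels were not used.

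Values were rounded to whole counts (87.4% were whole within 1e-06). The 18 somatic libraries were fitted together in edgeR 4.0.16 (R 4.3.3, limma 3.58.1) with TMM scaling, a minimum count of 10 in filterByExpr, 1 mean per group and the quasi-likelihood test, adjusted over 10672 genes by Benjamini-Hochberg. CPM used the library total without the TMM factor. The biological coefficient of variation was 0.671. The exon length trend was removed as an offset from a lowess fit (span 0.3) of each library on log2 exon length. Names, exon lengths and overlaps came from the Ensembl BDGP6 annotation, which 51 genes of the table did not match.

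Named genes were the 12 largest changes in each direction among called genes with at least 10 CPM and no overlap between groups, list members, and the smallest interaction p-values. Floors used 3 counts and intervals a level of 95%, for counting error only. Alternatives were DESeq2 1.42.0, RLE scaling, no filter, a filter of 5 CPM in 3 libraries, a replicate block, only the libraries compared, and each library left out. The edgeR fit as reported, with the length trend removed and with the replicate block, and DESeq2 were run on simulated counts. Those counts had no length trend and no deviating library. A limit on false calls was set there for the edgeR fits only. The comparison and the gene lists were chosen with earlier results of these data known.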

Additional observations from a re-analysis of the deposited data

Results flagged for a closer look

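The change from mid to late differed between yki RNAi and hpo RNAi for 43 genes by the interaction test. Among genes with at least 10 CPM the smallest p-values belonged to 4 genes, each with an adjusted p of 0.00207 in edgeR's quasi-likelihood test. The value is the log2 fold change under yki RNAi minus that under hpo RNAi. It was -1.55 (SE 0.20) for nord, -4.14 (SE 0.55) for Gasp, -2.17 (SE 0.30) for LamC and 2.19 (SE 0.30) for Aldh.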

How the results depend on the processing

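The 1407 genes called late against mid under yki RNAi became 1774 with DESeq2, 1399 with RLE scaling, 1398 with no filter, 1591 with the stricter filter and 1569 with only the libraries compared. Leaving out each library gave 893 to 1635, with 898 without late replicate 3. The 43 interaction calls became 164 with DESeq2, 86 with no filter and 100 with only the libraries compared, and 22 to 55 with each library left out. The hpo RNAi calls ranged between 1080 and 1502 with each library left out, against 1687. No result reversed. With the replicate block the calls were 1422 under yki RNAi, 1728 under hpo RNAi and 57 for the interaction. Deviations of same-numbered late and mid libraries had correlations of -0.0241, -0.0708 and -0.046 under yki RNAi and 0.0265, 0.0144 and 0.0266 under hpo RNAi. Differently numbered libraries had -0.0212 to 0.0576 and -0.0214 to -0.0046. Correlations this near 0 cannot settle whether same-numbered libraries were handled together. Over 141 genes and 1994 alternatives, 1707 kept their call or lack of one, 286 lost a call and 1 gained one. Totals of 17769590 to 61547876 counts limit what could be seen in genes of low count.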
